A study of Mus musculus with 7 samples.

Results

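The genes that build and restrain hypoxia-inducible factor (HIF) were followed in the liver RNA of ApoE-/- mice given a HIF-1α inhibitor. The set was fixed by gene symbol and holds 10 genes. They are the alpha subunits Hif1a, Epas1 and Hif3a, the partner subunits Arnt and Arnt2, the ubiquitin ligase subunit Vhl, the prolyl hydroxylases Egln1, Egln2 and Egln3, and the asparaginyl hydroxylase Hif1an. Read counts of 9 of the 10 were used, among 14889 genes in all, and 8 of the 10 passed the count filter and were tested among 13693 genes. Hif3a had too few reads for the filter, and Arnt2 was not analysed here. The PX-478 group was 3 mice injected intraperitoneally with PX-478 at 40 mg/kg, and the saline group was 4 mice, both on a schedule called bi-weekly. All 7 mice were ApoE-/- on C57BL/6, were given as 4 months old, and ate Western diet for 3 months, so no group had a functional Apoe gene or a normal diet. The interval between the last injection and the collection of the liver is not given in the labels.

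HIF is a dimer of an oxygen-regulated alpha subunit and a constitutive beta subunit, ARNT, that binds a short motif in its target genes. In the presence of oxygen the prolyl hydroxylases, also called PHD enzymes, mark the alpha subunit for capture by the VHL ubiquitin ligase and for destruction by the proteasome. The asparaginyl hydroxylase, also called FIH, blocks the binding of coactivators. This control acts on the protein, so the RNA levels given here describe the supply of transcripts and not the activity of HIF. In liver, HIF-2α, encoded by Epas1, is known for its effects on lipid storage and erythropoietin. PX-478 is a nitrogen mustard derivative that lowers HIF-1α protein in cancer cell lines, where a lower HIF-1α mRNA has been described as part of the effect. The comparison asks whether the transcripts of this system differ between PX-478 and saline livers.

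EGLN1 and EGLN3 are known HIF targets and so belong to a negative feedback loop, whereas EGLN2 is not known for induction by hypoxia. The promoters of all 3 hydroxylase genes are shown because their transcripts bear on that loop. Each holds 250 bases before and 50 bases after a RefSeq start site (GRCm38.p6), written 5′ to 3′ on the gene's own strand, and for Egln2 the upstream start site was taken. Capitals mark every match to the core of the hypoxia response element, searched as ACGTG and GCGTG on the strand shown and as CACGT and CACGC for the other strand.
Egln1, chr8:124949205-124949504, minus strand: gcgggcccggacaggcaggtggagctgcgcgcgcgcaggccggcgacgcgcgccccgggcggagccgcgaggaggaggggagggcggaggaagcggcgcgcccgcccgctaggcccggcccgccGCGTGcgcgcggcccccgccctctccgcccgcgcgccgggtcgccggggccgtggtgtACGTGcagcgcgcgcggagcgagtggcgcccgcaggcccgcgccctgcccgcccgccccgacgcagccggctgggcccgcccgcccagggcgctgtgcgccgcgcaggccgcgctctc
Egln2, chr7:27166753-27167052, minus strand: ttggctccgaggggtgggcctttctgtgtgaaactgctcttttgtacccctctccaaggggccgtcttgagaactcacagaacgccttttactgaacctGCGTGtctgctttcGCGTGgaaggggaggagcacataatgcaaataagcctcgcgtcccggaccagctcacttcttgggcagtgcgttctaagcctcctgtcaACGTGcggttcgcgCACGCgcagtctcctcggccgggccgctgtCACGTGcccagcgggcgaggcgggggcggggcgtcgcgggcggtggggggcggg
Egln3, chr12:54203825-54204124, minus strand: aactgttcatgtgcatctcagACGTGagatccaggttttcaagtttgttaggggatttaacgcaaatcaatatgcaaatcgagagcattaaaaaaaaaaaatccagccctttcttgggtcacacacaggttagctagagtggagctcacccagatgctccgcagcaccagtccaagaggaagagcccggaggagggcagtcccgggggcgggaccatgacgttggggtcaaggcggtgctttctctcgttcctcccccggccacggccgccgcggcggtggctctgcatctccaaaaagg
Egln1 held 2 matches, Egln2 held 6 and Egln3 held 1, with the Egln3 match beginning at position -229 from the start site. Of the 6 in Egln2, a pair near the start site overlaps, because CACGTG reads the same on both strands. A match was present in 43.8% of the 32851 RefSeq promoters of this length, and at least 2 matches in 20.6%. Among 10 promoters of 9 of the HIF genes, 7 held a match, with 3 matches in Hif1a, 2 in Hif3a, 1 in Arnt and 0 in Vhl, Hif1an and Arnt2. Matches describe the letters of these windows and not binding.

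Each library held 10285776 to 17257304 counted reads, and reads from the 15 genes of the mitochondrial genome made up 22.4% to 36.7% of them in the PX-478 libraries and 27.1% to 31.9% in the saline libraries. Markers of hepatocytes, the main cell of the liver, summed to 34600 to 41755 CPM (counts relative to library size) in PX-478 livers and 39413 to 54708 CPM in saline livers, with all 8 markers detected in every library. Of these 8 markers, 1 had a log2 fold change above 0 and 7 below. Levels are CPM after scaling by the trimmed mean of M-values (TMM). Across all genes edgeR called 0 genes higher and 1 lower at an adjusted p under 0.05, and the exception was Cfd. That is 0.0073% of the genes tested, while 6.97% had an unadjusted p under 0.05 and 8.59% had groups that did not overlap.

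None of the 8 tested HIF genes differed between PX-478 and saline livers at an adjusted p under 0.05 in edgeR's quasi-likelihood test, against a background of 0.0073%. At an unadjusted p under 0.05 the count was 0 of 8 as well, against 6.97% of all genes. DESeq2 called 0 of the 8, against 0.606% of all genes, and limma-voom called 0. The groups overlapped in all 8, where 8.59% of all genes had groups that did not. The log2 fold change was above 0 for Arnt, Egln2, Epas1 and Egln3 and below 0 for Egln1, Vhl, Hif1an and Hif1a, with a median of 0.06 against 0.00 for all genes. With scaling by library size only, which moved the median of all genes by 0.15, Hif1a and Hif1an were above 0 as well. These counts are near the background and do not set the HIF genes apart.

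**Figure D1:**
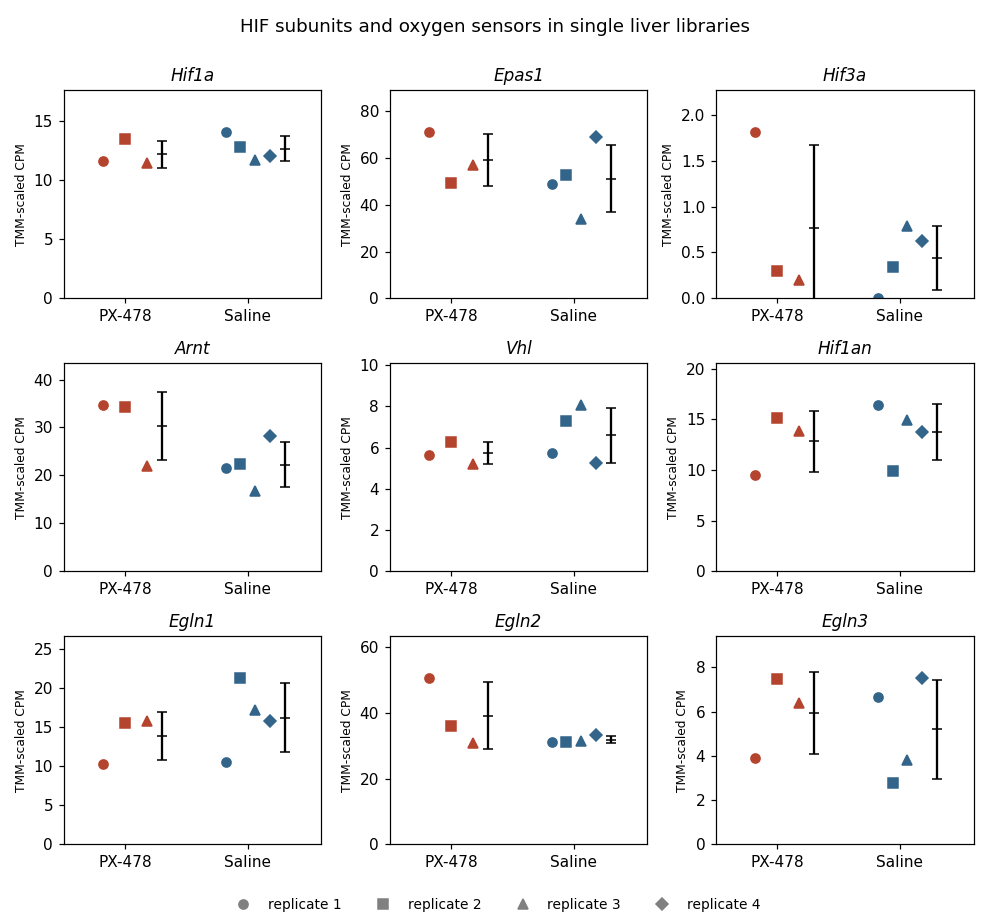
TMM-scaled CPM (y axis, from 0) of 9 HIF genes in each liver library, PX-478 in red and saline in blue, with the replicate number as symbol and the mean ± SD beside the points. The groups overlap in every panel, and saline values of Egln2 lie between 31.0 and 33.3 CPM while its PX-478 values lie between 30.9 and 50.6 CPM.

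Hif1a, the gene of the drug's named target, had nearly the same level in both groups. It lies at chr12:73901324-73947554 on the plus strand in mm10. Hif1a had 11.6, 13.5 and 11.4 CPM in PX-478 livers, against 14.1, 12.8, 11.7 and 12.0 CPM in saline livers. PX-478 replicates 1 and 3 lay just below the lowest saline library, and PX-478 replicate 2 lay within the saline range. The means were 12.2 ± 1.12 CPM in PX-478 (SD, n = 3) and 12.7 ± 1.05 CPM in saline (SD, n = 4). The estimate for Hif1a was -0.06 on the log2 scale (SE 0.21, adjusted p = 0.969 in edgeR), and the 95% interval corresponds to 0.702 to 1.32 times the saline level. Leaving out 1 library at a time gave values of -0.14 to -0.0020. With scaling by library size only the estimate was 0.10, or -0.04 relative to the median of all genes. The libraries held 148 to 216 Hif1a reads, for which counting error alone gives a coefficient of variation of 7.60% in PX-478 and 7.46% in saline. The observed values were 9.23% in PX-478 and 8.33% in saline, so the spread between livers was little above counting error. In bulk liver RNA, fewer cells of a type and less RNA per cell cannot be told apart. Macrophages also use Hif1a, and 10 of 10 Kupffer cell and macrophage markers had a log2 fold change below 0, with sums of 339 to 455 CPM in PX-478 and 361 to 684 CPM in saline. Their part in the Hif1a level was not tested. Exons of Hif1a share 330 bases with the antisense gene Gm15283 and 148 bases with the gene model Gm49321 on the same strand, and the counting notes give no use of strand.

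Epas1, which encodes HIF-2α, was the most abundant alpha transcript and varied more between livers than Hif1a. It lies at chr17:86753864-86833410 on the plus strand. Epas1 had 71.1, 49.2 and 56.9 CPM in PX-478 livers, against 48.8, 52.6, 34.1 and 68.8 CPM in saline livers. The lowest value belonged to saline replicate 3 and the highest to PX-478 replicate 1, with saline replicate 4 close behind. The means were 59.0 ± 11.1 CPM in PX-478 and 51.1 ± 14.2 CPM in saline. The estimate for Epas1 was 0.21 on the log2 scale (SE 0.23, adjusted p = 0.881 in edgeR), with an interval of 0.814 to 1.64 times the saline level. Leaving out 1 library at a time gave 0.06 to 0.39 for Epas1. The value was 0.06 without saline replicate 3 and without PX-478 replicate 1, and 0.39 without saline replicate 4. The coefficient of variation was 18.8% in PX-478 and 27.9% in saline, against 3.50% and 3.82% from counting. Endothelial cells are rich in HIF-2α, and the 11 endothelial markers, all detected in every library, summed to 455 to 580 CPM in PX-478 and 419 to 540 CPM in saline. Of the 11 markers, 9 had a log2 fold change above 0 and 2 below. The part of endothelial cells in the Epas1 level was not tested.

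Hif3a, whose product can restrain the other alpha subunits, stood near the detection limit. It lies at chr7:17030993-17062427 on the minus strand. The PX-478 libraries held 26, 4 and 3 Hif3a reads, against 0, 4, 12 and 10 reads in the saline libraries. In CPM that is 1.81, 0.303 and 0.196 in PX-478 livers, against 0, 0.347, 0.793 and 0.626 in saline livers, where 3 reads in a library equal 0.174 to 0.292 CPM. PX-478 replicate 1 was the highest library and the other PX-478 libraries lay within the saline range. Without the count filter the fitted difference was 0.79 on the log2 scale (SE 1.21, adjusted p = 0.921 in edgeR), and the interval of 0.286 to 10.4 times the saline level leaves its direction undetermined at this depth.

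Arnt, the partner that every HIF alpha subunit and the aryl hydrocarbon receptor share, had the smallest p of the HIF genes. It lies at chr3:95434367-95497240 on the plus strand. Arnt had 34.7, 34.2 and 22.1 CPM in PX-478 livers, against 21.6, 22.4, 16.8 and 28.3 CPM in saline livers. PX-478 replicates 1 and 2 lay above every saline library, whereas PX-478 replicate 3 lay within the saline range. The means were 30.3 ± 7.16 CPM in PX-478 and 22.2 ± 4.70 CPM in saline. The estimate for Arnt was 0.45 on the log2 scale (SE 0.23, unadjusted p = 0.0776, adjusted p = 0.737 in edgeR). Its interval of 0.961 to 1.93 times the saline level includes no difference. Without PX-478 replicate 3 this value was 0.63 (adjusted p = 0.617), and without saline replicate 3 it was 0.33 (adjusted p = 0.843).

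**Figure D2:**
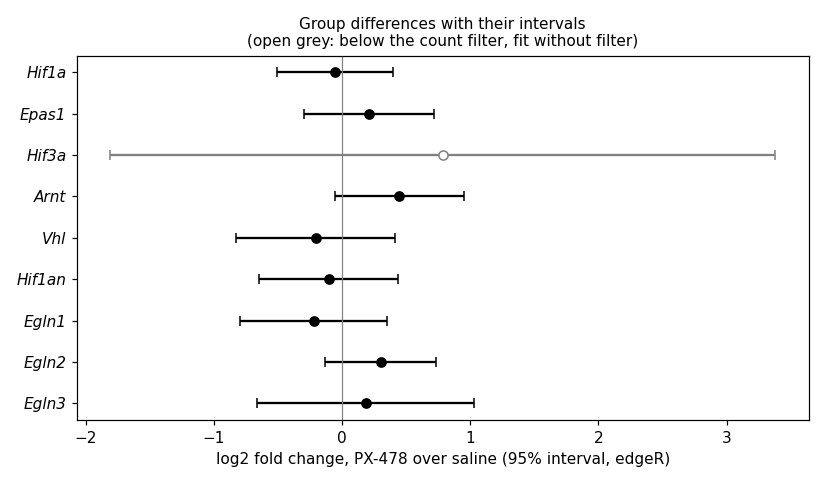
PX-478 over saline as log2 fold change (x axis) for 9 HIF genes with 95% intervals from edgeR's quasi-likelihood fit. Every interval includes 0, the Hif1a interval runs from -0.51 to 0.40 and the Hif3a interval, from the fit without a count filter, is by far the widest.

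Per kilobase of exon, Epas1 transcripts made up most of the alpha subunit pool in every liver. Epas1 supplied 84.2%, 78.0% and 82.9% of the summed alpha level in PX-478 livers, against 77.4%, 79.8%, 73.2% and 84.4% in saline livers. Hif1a supplied 14.0% to 21.6% in PX-478 and 14.9% to 25.4% in saline. Hif3a supplied 0.242% to 1.82% in PX-478 and 0% to 1.44% in saline. Epas1 stood at 3.61 to 6.03 times Hif1a in PX-478 livers and at 2.88 to 5.65 times in saline livers, so the groups overlapped.

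The balance of alpha subunits to Arnt ranged widely among the 3 PX-478 livers and narrowly among the 4 saline livers. The summed alpha level per kilobase was 2.13, 1.62 and 2.73 times the Arnt level in PX-478 livers, against 2.56, 2.58, 2.43 and 2.53 times in saline livers. PX-478 replicates 1 and 2 lay below all saline values, and PX-478 replicate 3 lay above them. The SD was 0.555 over 3 PX-478 livers and 0.0662 over 4 saline livers. This spread was seen in the data and was not tested. In saline livers, counting error alone gives a coefficient of variation of 5.71% for Arnt and 3.82% for Epas1. The saline ratios lay closer together than such error in Arnt alone would give, so their narrowness is not read as a group trait. Saline replicate 3 was lowest and saline replicate 4 highest of the saline libraries for both Epas1 and Arnt.

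Vhl, the substrate-binding subunit of the ligase that destroys hydroxylated HIF alpha, was a low transcript. It lies at chr6:113623994-113631634 on the plus strand. Vhl had 5.64, 6.28 and 5.22 CPM in PX-478 livers, against 5.73, 7.29, 8.06 and 5.26 CPM in saline livers. Saline replicates 2 and 3 were above all PX-478 libraries, and the other saline libraries lay among them. The estimate for Vhl was -0.20 on the log2 scale (SE 0.29, adjusted p = 0.906 in edgeR), with an interval of 0.565 to 1.33 times the saline level. Leaving out 1 library at a time gave -0.30 to -0.09 for Vhl, with -0.09 reached without saline replicate 3. At 80 to 122 reads per library, counting error alone gives a coefficient of variation of 11.1% in PX-478 and 10.4% in saline, against observed values of 9.32% and 19.9%.

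Hif1an, which encodes FIH, lies at chr19:44562854-44576274 on the plus strand. Its level was 9.47, 15.1 and 13.8 CPM in PX-478 livers, against 16.4, 9.89, 14.9 and 13.8 CPM in saline livers. PX-478 replicate 1 and saline replicate 2 were low and the other 5 libraries lay together above them. The log2 difference was -0.10 (SE 0.25, adjusted p = 0.951 in edgeR), with an interval of 0.638 to 1.35 times the saline level. It was 0.08 without PX-478 replicate 1 and 0.07 with scaling by library size only, so its sign was not settled.

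Egln2, which encodes PHD1, was the leading hydroxylase transcript and was even among saline livers. It lies at chr7:27158658-27166802 on the minus strand. Egln2 had 50.6, 36.0 and 30.9 CPM in PX-478 livers, against 31.3, 31.0, 31.5 and 33.3 CPM in saline livers. PX-478 replicates 1 and 2 exceeded every saline library, and PX-478 replicate 3 was the lowest of all 7. The coefficient of variation was 26.1% in PX-478 livers and 3.30% in saline livers, against 4.32% and 4.71% from counting. The saline value was below counting error, so this evenness is not read as a group trait. The estimate for Egln2 was 0.30 on the log2 scale (SE 0.20, adjusted p = 0.795 in edgeR), with an interval of 0.914 to 1.66 times the saline level. Without PX-478 replicate 1 it was 0.08, and without PX-478 replicate 3 it was 0.45. Exons of Egln2 share 11 bases with Cyp2t4 on the opposite strand.

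Egln1, which encodes PHD2, the main oxygen sensor for HIF-1α, lies at chr8:124908587-124949254 on the minus strand. Egln1 had 10.3, 15.6 and 15.8 CPM in PX-478 livers, against 10.6, 21.3, 17.2 and 15.8 CPM in saline livers. PX-478 replicate 1 and saline replicate 1 were low, and saline replicate 2 was high. The estimate for Egln1 was -0.22 on the log2 scale (SE 0.27, adjusted p = 0.889 in edgeR), with an interval of 0.576 to 1.28 times the saline level. It was -0.05 without PX-478 replicate 1 and -0.38 without saline replicate 1.

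Egln3, which encodes PHD3, the family member most strongly induced by hypoxia in many cells, lies at chr12:54178981-54203874 on the minus strand. Egln3 had 3.90, 7.49 and 6.39 CPM in PX-478 livers, against 6.64, 2.78, 3.83 and 7.52 CPM in saline livers. Both groups held low and high libraries and overlapped almost wholly. The estimate for Egln3 was 0.18 on the log2 scale (SE 0.39, adjusted p = 0.941 in edgeR), with an interval of 0.632 to 2.04 times the saline level. It was -0.02 without PX-478 replicate 2 and also -0.02 without saline replicate 2. Its coefficient of variation, 31.0% in PX-478 and 43.3% in saline, was the largest of the 8 tested HIF genes, against 11.3% and 12.9% from counting.

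Egln2 also dominated the hydroxylase pool per kilobase of exon. It supplied 84.1%, 69.6% and 67.3% of the summed PHD level in PX-478 livers, against 72.2%, 66.9%, 69.6% and 67.7% in saline livers. Egln1 supplied 10.5% to 21.1% in PX-478 and 15.0% to 28.2% in saline. Egln3 supplied 5.37% to 12.0% in PX-478 and 4.95% to 12.7% in saline. PX-478 replicate 1 stood apart in having the highest Egln2 share and the lowest Egln1 share of the 7 livers. The same library had the highest Epas1, Arnt and Hif3a levels, the lowest Egln1 and Hif1an levels and the highest share of mitochondrial reads, and the part of that share in these values was not tested.

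**Figure D3:**
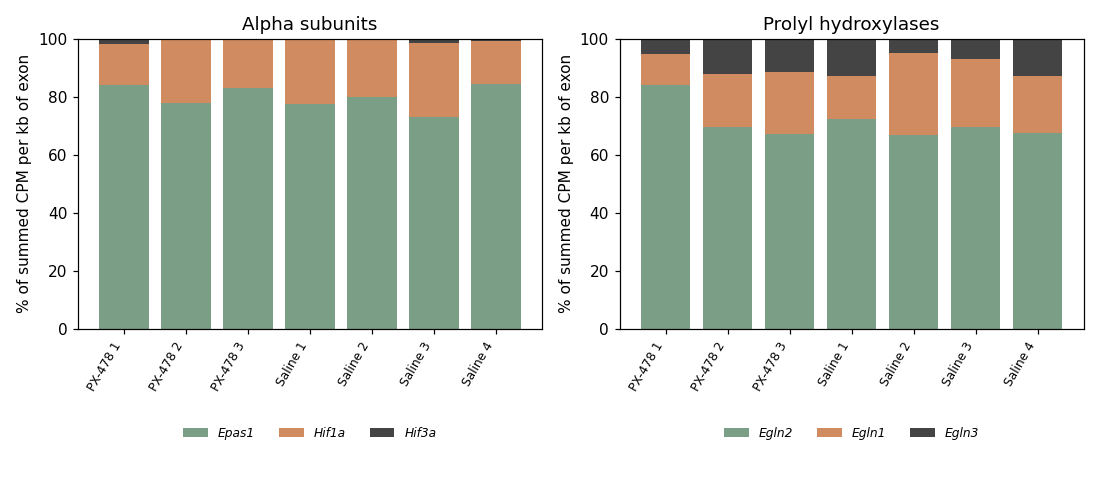
Share of each gene in the summed CPM per kilobase of exon (y axis, percent) in each library, for the 3 HIF alpha subunits and the 3 prolyl hydroxylases, with PX-478 left of saline. Epas1 takes 73.2% to 84.4% of the alpha pool and Egln2 takes 66.9% to 84.1% of the hydroxylase pool over the 7 livers.

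The order of the 9 transcripts per kilobase of exon was the same at its ends in all 7 livers. Egln2 ranked highest in every liver, at 17.8 ± 4.64 CPM per kilobase in PX-478 and 14.4 ± 0.476 in saline. Epas1 followed at 10.7 ± 2.01 CPM per kilobase in PX-478 and 9.26 ± 2.58 in saline. Arnt and Egln1 held ranks 3 and 4, and Arnt stood above Egln1 in 5 of 7 livers. Arnt averaged 6.27 ± 1.48 CPM per kilobase in PX-478 and 4.60 ± 0.974 in saline, and Egln1 averaged 3.87 ± 0.864 and 4.52 ± 1.23 in the same groups. Vhl, Hif1a, Hif1an and Egln3 shared ranks 5 to 8, changed places between livers and did not differ beyond their spread. Their group means ran from 2.05 CPM per kilobase for Vhl to 2.23 for Hif1a in PX-478, and from 1.95 for Egln3 to 2.36 for Vhl in saline. Hif3a was last in every liver. Exon lengths are unions over annotated transcripts, so a gene that uses a shorter form in liver is understated on this scale.

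The genes around HIF were read from 8 lists of partners, cofactors, relatives, metabolic suppliers and targets, which hold 99 tested genes beside the HIF genes. edgeR called 0 of the 99 at an adjusted p under 0.05, and 8 of 99, or 8.08%, had an unadjusted p under 0.05, against 6.97% of all genes. Of these 8, 3 were among the 12 genes of 2-oxoglutarate supply, 2 among the 5 bHLH-PAS relatives, 1 each among the other dioxygenases, the HIF targets and the HIF-2 targets, and 0 in the remaining lists. The groups did not overlap for 11 of the 99, or 11.1%, against 8.59% of all genes. The median log2 fold change was -0.05 for the 99 and 0.00 for all genes.

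Of 9 tested genes of the VHL ligase complex and factors linked to it, 5 had a log2 fold change above 0 and 4 below. Their median was 0.05. The smallest p-values belonged to the deubiquitylase gene Usp33 at 0.37 (SE 0.19), to Eloc at -0.41 (SE 0.23) and to Elob at -0.21 (SE 0.19), where the last pair encode the elongins that link VHL to its cullin. Of 13 chaperones and other factors linked to HIF alpha stability, 4 were above 0 and 9 below, with a median of -0.09. Hspa8 stood at -0.45 (SE 0.32) on the log2 scale, Hsp90ab1, of the chaperone that stabilises HIF-1α, at -0.33 (SE 0.31) and Ajuba at 0.35 (SE 0.39). None passed the test. Single libraries moved these values widely. Without saline replicate 3, Hspa8 stood at -0.17, Ajuba at 0.15 and Elob at -0.08. Hsp90ab1 stood at -0.08 and Eloc at -0.25 without PX-478 replicate 1, and Hspa8 at -0.78 and Hsp90ab1 at -0.72 without PX-478 replicate 2. Ajuba reached 0.70 without saline replicate 4.

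Of 12 tested coactivators and inhibitors, 9 were above 0 and 3 below, with a median of 0.08. Sirt3, a mitochondrial deacetylase gene, stood at 0.41 (SE 0.19) on the log2 scale and the Mediator gene Med15 at 0.24 (SE 0.22), which was 0.03 without PX-478 replicate 1. Crebbp, which encodes the coactivator CBP that binds HIF alpha, had 9.34, 10.1 and 10.5 CPM in PX-478 livers, against 8.86, 9.19, 2.78 and 8.65 CPM in saline livers. The groups did not overlap, and saline replicate 3 lay far below the other 6 libraries. Its log2 fold change was 0.44 (SE 0.36, adjusted p = 0.840 in edgeR), and 0.17 without saline replicate 3.

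Among relatives of HIF in the bHLH-PAS family and its coactivators, 1 of 5 tested genes was above 0 and 4 below, with a median of -0.51. Clock, a circadian transcription factor, averaged 4.67 ± 1.33 CPM in PX-478 and 10.3 ± 1.49 CPM in saline, without overlap (log2 fold change -1.14, adjusted p = 0.328 in edgeR and 0.0475 in DESeq2). Arntl, the gene of its partner BMAL1, stood at -1.49 (SE 0.86) on the log2 scale and Ncoa3 at 0.49 (SE 0.20). The Arntl value was -0.58 without saline replicate 1, at 8.21 CPM the highest library, and -2.40 without PX-478 replicate 2. Npas2, which can stand in for Clock, fell below the count filter and is named after its values were seen. It had 0 reads in each of the 3 PX-478 libraries, against 68, 14, 4 and 3 reads in the saline libraries, the last of which is the detection limit of 3 reads. Ahr, the dioxin receptor that also pairs with ARNT, was named after its values were seen and stood at -0.17 on the log2 scale (SE 0.25).

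The HIF hydroxylases belong to a larger family of oxygen-dependent dioxygenases that consume 2-oxoglutarate. Of 28 other dioxygenases tested, 12 were above 0 and 16 below, with a median of -0.10. Ado, a thiol dioxygenase that also senses oxygen, averaged 3.56 ± 0.989 CPM in PX-478 and 6.03 ± 0.838 CPM in saline, without overlap (log2 fold change -0.76, SE 0.32, adjusted p = 0.686 in edgeR). Riox2 stood at 1.06 (SE 0.54) on the log2 scale and Asph, an aspartyl hydroxylase gene, at 0.37 (SE 0.20), both without overlap.

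Enzymes that make or remove 2-oxoglutarate, succinate and fumarate set the supply of substrate and inhibitors for these hydroxylases. Of 12 tested, 3 were above 0 and 9 below, with a median of -0.14. Idh2, the mitochondrial isocitrate dehydrogenase that forms 2-oxoglutarate, had 44.0, 46.1 and 55.5 CPM in PX-478 livers, against 27.0, 26.6, 18.1 and 31.4 CPM in saline livers. Every PX-478 library lay above every saline library. The log2 fold change was 0.91 (SE 0.21, adjusted p = 0.264 in edgeR and 0.0273 in DESeq2). Glud1, glutamate dehydrogenase, averaged 292 ± 36.0 CPM in PX-478 and 419 ± 41.2 CPM in saline (log2 fold change -0.52, adjusted p = 0.602 in edgeR). D2hgdh, which clears D-2-hydroxyglutarate, averaged 44.7 ± 7.37 CPM in PX-478 and 32.0 ± 4.31 CPM in saline (log2 fold change 0.48, adjusted p = 0.652 in edgeR).

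Of 18 tested HIF target genes, a list that includes Egln1 and Egln3, 9 were above 0 and 9 below, with a median of 0.02. The smallest p belonged to Pdk1, a pyruvate dehydrogenase kinase gene, with 57.4, 36.6 and 44.2 CPM in PX-478 livers, against 25.3, 33.8, 17.4 and 22.7 CPM in saline livers. The groups did not overlap, and the log2 fold change was 0.90 (SE 0.24, adjusted p = 0.409 in edgeR). Bnip3, a mitophagy receptor gene, also showed no overlap, at 0.41 (SE 0.19), and Slc2a1, the glucose transporter GLUT1, stood at 1.12 (SE 0.57) on the log2 scale with overlap, or 0.70 without PX-478 replicate 1. Of 6 tested HIF-2 targets, 3 were above 0 and 3 below, with Slc11a2, an iron transporter gene, at -0.64 (SE 0.23) and Ppara at 0.15 (SE 0.28).

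**Figure D4:**
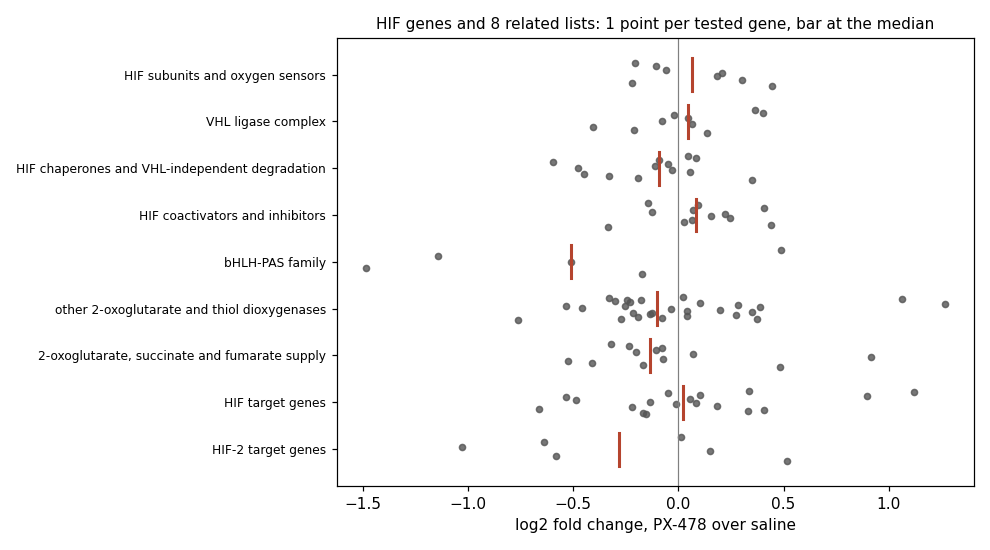
PX-478 over saline as log2 fold change (x axis) for every tested gene of the HIF set and of 8 related lists, with a red bar at each list's median. No point passed an adjusted p of 0.05 in edgeR. DESeq2, which called 0.606% of all genes, called Clock and Idh2 among the genes named. Neither passed in limma-voom (adjusted p = 0.344 for Clock and 0.266 for Idh2). The medians lie between -0.51 for the bHLH-PAS family and 0.08 for the coactivators and inhibitors.

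The genes whose profile was nearest to that of Hif1a over the 7 livers were Msl2, Eya3 and Man2b2. After centring each gene's log2 CPM, their root mean square differences from Hif1a were 0.0417, 0.0577 and 0.0660, where the median over 13692 genes was 0.381. With 7 livers and this many genes, close profiles are found for any gene of small spread, and nothing is said of shared function.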

How the data were processed

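Total liver RNA of 7 mice was sequenced with Illumina library protocols, per the labels. Sample groups and numbers were read from the sample titles. The labels name no litter, cage or collection day, and do not say how mice were assigned to a group, so a p-value speaks only of the spread among these samples, which may be technical. The authors deposited whole-number read counts per Entrez gene. The submitters' processing notes name featureCounts, edgeR and mm10, with no versions; an aligner was not given in the sources used here. Of the 14 count columns, at least 2 exceed a CPM of 0.5 for each of the 14889 genes, a sign that lower genes had been dropped earlier.

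Each sample has 2 count columns. Their chi-square per gene was 0.291 to 0.765, against 49 to 145 between libraries of a group, so both were counted as 1 sample, as their rounded mean. The 7 columns that hold averages by sample stayed unused. Genes passed filterByExpr, libraries were scaled by TMM, and groups were compared with edgeR 4.0.16 (quasi-likelihood F test, robust, no covariates, Benjamini-Hochberg over 13693 genes, threshold 0.05, R 4.3.3). SE is the size of the log2 fold change divided by the root of F. Hif3a was fitted without the filter. Intervals are at 95% and, like the floor of 3 reads per library, the counting coefficients of variation cover counting error only. The test was checked on simulated counts, where it called 27 of 100 genes changed 2-fold and 83 of 100 changed 4-fold. It called 6 of 13493 unchanged genes simulated, where 13275 genes, changed ones included, passed the filter and were tested. Most of the 2-fold changes were missed. The changed genes were drawn at random, so these shares are not specific to the HIF genes. Alternatives used DESeq2 1.42.0, limma-voom (limma 3.58.1), other scalings, filters, thresholds and count columns, a replicate block and leaving out each library. Leaving out mitochondrially encoded genes was chosen after seeing the data.

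Exon lengths are unions of GENCODE M21 basic exons (GRCm38, the mm10 coordinates), found for 13682 genes, and gene positions come from a RefSeq table of GRCm38.p6, in which 14492 of the deposited IDs matched. Promoters come from RefSeq on the same build, with 9 of 10 HIF genes matched. The HIF genes and lists were chosen with earlier results of these data known. Named genes are all HIF genes, the 3 smallest p-values and any call of each related list, and the 3 genes nearest to Hif1a in root mean square distance. Marker lists are given by their sums and counts, apart from Cfd, which passed the threshold. A gene named by the rule on related lists is not reported here.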

Additional observations from a re-analysis of the deposited data

Results flagged for a closer look

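Within the 4 saline libraries, 47 sets of values were searched for a library far from the others, by Dixon's ratio of the gap to the range at the 95% level, and 3 were found. Chance flags about 1 in 20 such sets, and none of the HIF genes was among them. Crebbp stood at 2.78 CPM in saline replicate 3, with the other saline libraries between 8.65 and 9.19 CPM. Ppara stood at 84.9 CPM in the same library, with the others between 168 and 183 CPM. Man2b2, a gene near Hif1a in profile, stood at 28.7 CPM in saline replicate 1, with the others between 23.9 and 24.4 CPM.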

How the results depend on the processing

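The count of called HIF genes was 0 under every alternative run, and the adjusted p of the tested HIF genes ranged from 0.617 to 1.00. Arnt, Egln2 and Epas1 kept a log2 fold change above 0, and Egln1 and Vhl one below 0, in all 20 alternatives. With scaling by library size only, the median of all genes moved by 0.15, and Hif1a and Hif1an turned to 0.10 and 0.070, or to -0.04 and -0.08 relative to the median of all genes; Msl2 turned to 0.072. Leaving out 1 library at a time gave -0.019 to 0.42 for Egln3, which turned without PX-478 replicate 2 or saline replicate 2, and -0.24 to 0.075 for Hif1an. The same gave -0.051 to 0.37 for Ppara, -0.091 to 0.072 for Eya3 and -0.012 to 0.10 for Man2b2, and the cause of these turns was not tested. Hif3a had enough reads for a value in 4 alternatives, where its log2 fold change ran from 0.60 to 1.24. All 4 kept PX-478 replicate 1, the library with 26 Hif3a reads, and no value was obtained without that library. The range therefore cannot settle the direction of Hif3a. Genes called higher numbered 46 in DESeq2, 4 with library size only, 1 at a threshold of 0.1 and 0 to 4 with a library left out, where 4 were called without PX-478 replicate 2 or saline replicate 4 and 2 without PX-478 replicate 3. Genes called lower numbered 37 in DESeq2, 0 in limma-voom and 1 to 3 with a library left out, with 3 without PX-478 replicate 3. Replicate numbers are shared between the groups, but same-numbered libraries deviated together by a correlation of only -0.07 to 0.00. These few values show no pairing but cannot exclude a cage or collection day shared by number. The fit with a replicate block called 1 gene higher, 2 lower and 0 HIF genes, and turned Eya3 to -0.027. No PX-478 library correlated best with the saline library of its own number. Depth limits Hif3a most, and Egln3 and Vhl next.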

Other observations

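The 2 count columns of a sample were close to copies of each other for most HIF genes, but not for Egln3. Summed over the 7 libraries, Egln3 had 614 reads in the first columns and 517 in the second, a ratio of 1.19, whereas the ratio was 1.00 for Hif1a, 1.01 for Epas1, Egln1, Egln2 and Hif1an, 1.02 for Arnt and 1.03 for Vhl. In saline replicate 3 the columns held 74 and 43 Egln3 reads. Only 1.82% of the 13693 tested genes had a larger chi-square between columns. The log2 fold change of Egln3 was 0.08 from the first columns and 0.29 from the second, and the labels do not say what sets the columns apart.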
